A study of Mus musculus with 58 samples.

Results

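The Ly6 (lymphocyte antigen 6) genes described here are Ly6e, Ly6i, Ly6a, Ly6c1 and Ly6c2, 5 of the 47643 genes in each count table. They were chosen by their measured behaviour in these libraries, with the results of all 4 comparisons known, so their levels, fold changes and calls are given as a description and carry no test. All 5 symbols matched an Ensembl identifier.

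RNA 3′ ends were counted in 34 libraries of mouse microglia, the resident macrophages of the brain, in 4 experiments of 8 groups. Wild-type primary microglia from newborn pups received tau fibrils at 2 µg/ml for 24 hours (Tau, n = 4) or vehicle (Vehicle, n = 4). Adult microglia were isolated with CD11b beads from the brains of male PS19 mice (n = 4) and male non-transgenic mice (NTG, n = 4). PS19 mice carry a human tau transgene with a disease mutation. The adult mice were at 10.98 months, except for 2 NTG libraries at 11.18 months. In the other experiments cultured primary microglia carried a floxed construct for constitutively active IKKβ, the kinase that switches on NF-κB, or floxed Ikbkb alleles, the gene for IKKβ. IkbkbCA (n = 5) and Ikbkb-/- (n = 4) carried Cx3cr1-CreERT2 on 1 allele of Cx3cr1 and the floxed alleles, whereas their controls IkbkbWT (n = 5) and Ikbkb+/+ (n = 4) carried the same floxed alleles and no Cre. All of these cultures, controls included, were treated with 4-hydroxytamoxifen, so the presence of Cre, the single Cx3cr1 copy and the change of IKKβ cannot be told apart. A further 24 cortex samples of the series were not analysed here.

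Ly6 proteins are small, cysteine-rich proteins with finger-like loops that sit on the outer cell surface through a lipid (GPI) anchor. Several of the genes are known to be induced by interferons in many cell types. Ly6e is widely expressed and is known for effects on virus entry, Ly6a encodes Sca-1, a marker of blood stem cells that also marks endothelial cells, and Ly6c1 and Ly6c2 encode the near-identical forms of Ly6C. In the brain Ly6c1 is best known from the endothelium of blood vessels, and Ly6c2 from inflammatory monocytes. Ly6i is a less studied neighbour of Ly6a.

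The 5 genes lie in one cluster on chromosome 15 of the mouse genome (GRCm38), spread over 156.92 kb. In order along the chromosome these are Ly6e (ENSMUSG00000022587, chr15:74955051-74959905, plus strand), Ly6i (ENSMUSG00000022586, chr15:74979534-74983430), Ly6a (ENSMUSG00000075602, chr15:74994877-74998031), Ly6c1 (ENSMUSG00000079018, chr15:75044018-75048830) and Ly6c2 (ENSMUSG00000022584, chr15:75108158-75111970), the last 4 on the minus strand. No annotated gene overlapped any of them. The gaps between neighbours ran from 11.4 kb between Ly6i and Ly6a to 59.3 kb between Ly6c1 and Ly6c2. The pseudogene Gm8000, between Ly6i and Ly6a, reached at most 8 counts in any library.

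To show how alike the members are, the last 90 coding bases before the stop codon of each gene's principal GENCODE transcript are shown. Reads came from the 3′ ends of transcripts, beyond the stop codon. The stretches therefore do not show how far the reads of the members can be separated. Each stretch lies in the last coding exon, is written 5′ to 3′ in the sense of the gene, and capitals mark the bases that differ from Ly6c1 at the same distance from the stop codon.

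Ly6c1 (chr15:75045405-75045494, minus strand): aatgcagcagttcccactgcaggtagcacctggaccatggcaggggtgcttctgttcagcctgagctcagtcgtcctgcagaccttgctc
Ly6c2 (chr15:75108546-75108635, minus strand): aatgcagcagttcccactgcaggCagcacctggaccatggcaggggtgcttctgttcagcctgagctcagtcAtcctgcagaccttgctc
Ly6a (chr15:74995265-74995354, minus strand): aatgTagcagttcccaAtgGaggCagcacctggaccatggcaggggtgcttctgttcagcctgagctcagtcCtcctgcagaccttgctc
Ly6i (chr15:74979917-74980006, minus strand): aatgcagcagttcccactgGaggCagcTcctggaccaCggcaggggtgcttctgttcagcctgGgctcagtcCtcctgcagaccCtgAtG
Ly6e (chr15:74958621-74958710, plus strand): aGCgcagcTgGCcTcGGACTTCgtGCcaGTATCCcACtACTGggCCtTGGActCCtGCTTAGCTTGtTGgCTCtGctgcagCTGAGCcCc

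Over these 90 bases Ly6c2 differed from Ly6c1 at 2 positions, Ly6a at 5, Ly6i at 9 and Ly6e at 58. Over the whole aligned coding parts Ly6c1 and Ly6c2 were 97.7% identical, the pairs among Ly6i, Ly6a and the Ly6c genes 83.2% to 86.3%, and Ly6e and the others 55.1% to 57.3%. The coding parts held 136 codons in Ly6e, 134 in Ly6i and Ly6a, and 131 in Ly6c1 and Ly6c2. In the last 300 transcribed bases, the part that 3′ sequencing reads, 26.8% of the words of 50 bases of Ly6c1 and 23.3% of those of Ly6c2 also stood in the transcripts of another gene, for Ly6c1 in Ly6c2 and for Ly6c2 nearly all in Ly6c1. The share was 4.0% for Ly6i and 0.0% for Ly6a and Ly6e. Reads that align to more than 1 place were set apart in the deposited tables and were not given to a gene. The counts of Ly6c1 and Ly6c2 thus hold only reads aligned to 1 place. Whether that place was the right gene was not tested.

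**Figure D1:**
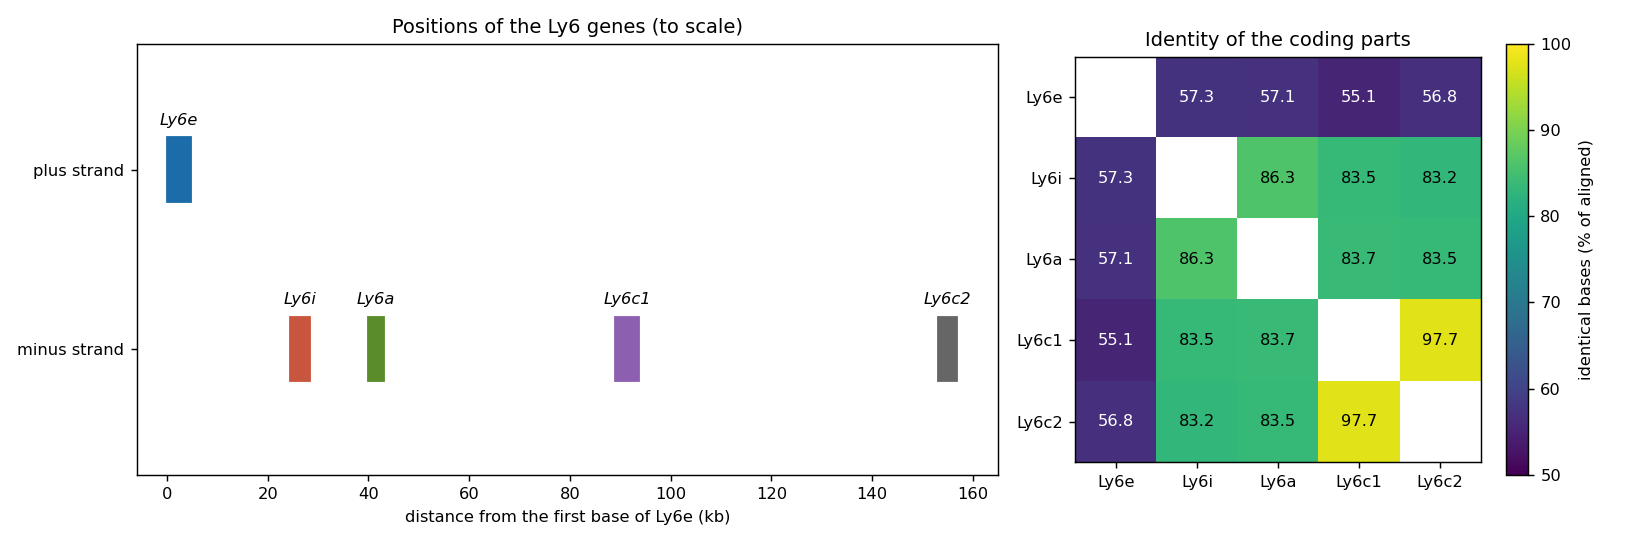
Left, the 5 genes drawn to scale by strand, with the distance from the first base of Ly6e in kb on the horizontal axis. Right, the percentage of identical bases among the aligned coding bases for each pair, from 55.1% for Ly6e with Ly6c1 to 97.7% for Ly6c1 with Ly6c2.

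Between 1672052 and 8349128 reads per library were assigned to genes. Levels are CPM, the reads of a gene scaled to a common total of reads assigned to genes, scaled within each experiment, so levels set side by side across experiments come from separately scaled tables. Each transcript gives 1 tag at its 3′ end, so CPM was not divided by length. The summed level of 11 microglia markers was 30030 to 43650 CPM in the adult libraries, 12010 to 13710 in Tau, 5441 to 7004 in Vehicle and 12110 to 23000 in the Ikbkb experiments. In the Ikbkb-/- libraries Ikbkb stood at 22.9 ± 3.03 CPM against 52.2 ± 4.25 in Ikbkb+/+ (SD, n = 4 each), a log2 fold change of -1.21 (SE 0.12; edgeR quasi-likelihood test, Benjamini-Hochberg adjusted p = 6.3e-07). In IkbkbCA it was 52.6 ± 6.36 against 46.9 ± 6.75 CPM in IkbkbWT (n = 5 each), and a 3′ tag need not lie in the deleted part or in the construct. The library IkbkbCA replicate 3 stood apart, with 8 granulocyte markers summing to 1438 CPM against 31.6 to 54.6 CPM in the other IkbkbCA libraries, and the Ly6 fold changes of that comparison are given with and without it. Nothing in the labels says which libraries came from separate animals or cultures, so the spread between libraries may be partly technical.

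Ly6e was the highest of the 5 in each group. It was higher than the controls in Tau, IkbkbCA and Ikbkb-/-, and its PS19 and NTG libraries overlapped. Ly6i was present in Tau and IkbkbCA and low elsewhere, Ly6a was present in the adult cells and higher than the controls in both Cre-carrying cultures, and Ly6c1 and Ly6c2 had their highest levels in the adult cells.

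**Figure D2:**
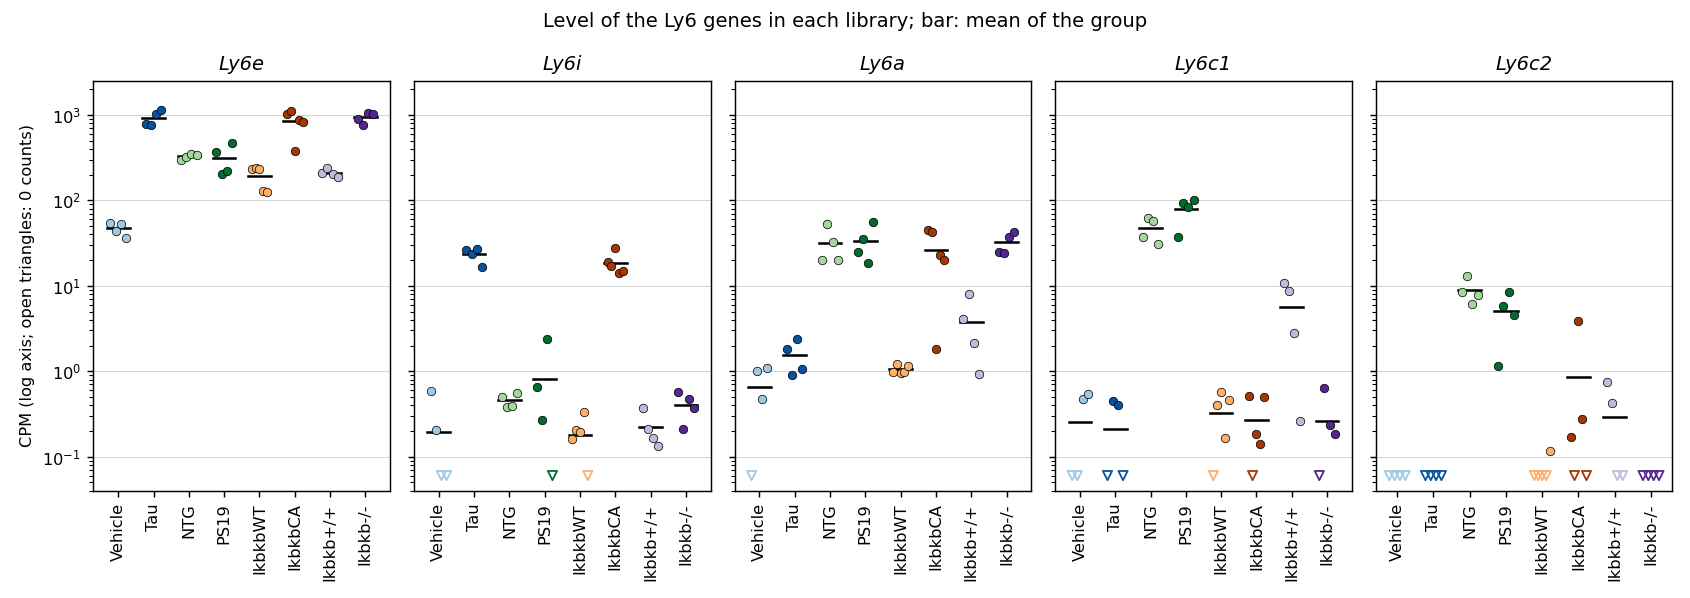
CPM on a log axis for each gene (panels) in each of the 34 libraries (points) by group, with the group mean as a bar and libraries with 0 counts as open triangles at the bottom. Ly6i stood between 14.3 and 27.8 CPM in Tau and IkbkbCA and at 2.36 CPM or less in the other groups.

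Ly6e after tau fibrils measured 781, 769, 1030 and 1131 CPM in the 4 Tau libraries. The Vehicle libraries measured 54.8, 44.1, 52.5 and 36.5 CPM. Every Tau library lay far above every Vehicle library, the means being 928 ± 181 and 47.0 ± 8.35 CPM (SD, n = 4 each) and the fitted log2 fold change 4.31 (SE 0.17), or 19.8-fold. The summed microglia markers were also higher in every Tau library, 12010 to 13710 against 5441 to 7004 CPM, with 5 of the 10 tested called higher and 0 called lower, and their part in the Ly6e values was not tested. In bulk RNA a larger share of microglia and more RNA per cell cannot be told apart.

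Ly6i went from almost nothing to a clear signal after tau fibrils. It had 44, 53, 68 and 31 counts in the Tau libraries, or 26.4, 23.9, 27.0 and 16.6 CPM. In the Vehicle libraries it had 1, 1, 0 and 0 counts. The groups did not overlap, and the pooled rate was 125-fold higher in Tau, with an exact 95% counting interval of 34.2 to 1042 that covers counting error only. The fitted log2 fold change was 6.61 (SE 0.52), which for a gene with 2 counts in all control libraries depends on the prior count and was 6.02 with limma-voom.

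The other members stayed near the limit of detection in this experiment. Ly6a had 3, 2, 6 and 2 counts in Tau and 0, 5, 1 and 2 in Vehicle, a ratio of 2.08 with a counting interval of 0.799 to 5.79 that includes no change. Ly6c1 had at most 1 count in any of the 8 libraries and Ly6c2 had 0 in all of them, where 3 counts, the upper limit that a count of 0 allows, would be 0.610 to 1.80 CPM. Of the members, 2 passed the filter on low counts, and both were past an FDR of 0.05 and did not overlap between groups. Ly6i passed it only through its Tau libraries. Over all genes tested 29.9% were past that FDR and 28.3% did not overlap.

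In the adult brain, Ly6e in the PS19 libraries measured 367, 205, 221 and 475 CPM. In the NTG libraries it measured 299, 322, 351 and 340 CPM. The NTG values lay inside the PS19 range, with means of 317 ± 128 and 328 ± 22.9 CPM and a log2 fold change of -0.05 (SE 0.26). PS19 spread much more than NTG, with a coefficient of variation of 40.4% against 6.97%. Ly6a measured 25.2, 35.4, 18.4 and 56.2 CPM in PS19. It measured 20.1, 53.6, 32.5 and 20.0 CPM in NTG, and the groups overlapped throughout (log2 fold change 0.08, SE 0.38).

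Ly6c1 had its highest levels among the 34 microglia libraries in the adult cells. It measured 37.2, 93.4, 84.8 and 100.5 CPM in PS19. In NTG it measured 37.1, 62.8, 57.3 and 31.1 CPM. PS19 replicate 1 fell among the NTG libraries and the other 3 PS19 libraries lay above all NTG libraries, with a PS19 mean of 79.0 ± 28.6 CPM, an NTG mean of 47.1 ± 15.3 CPM and a fitted log2 difference of 0.73 (SE 0.31). The summed level of 12 endothelial markers ran in the same direction, 441, 793, 473 and 673 CPM in PS19 and 430, 461, 533 and 320 CPM in NTG. All 12 were higher in PS19, 0 of them at an adjusted p under 0.05 in edgeR or DESeq2 and 2 at an unadjusted p under 0.05, and the part of endothelial RNA in the Ly6c1 values was not tested.

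Ly6c2 ran the other way in the same libraries. It measured 1.15, 5.85, 8.52 and 4.56 CPM in PS19. It measured 8.53, 13.1, 6.10 and 7.78 CPM in NTG. PS19 replicates 1, 2 and 4 lay below all NTG libraries, whereas PS19 replicate 3 overlapped them, with a PS19 mean of 5.02 ± 3.06 CPM, an NTG mean of 8.88 ± 2.997 CPM and a fitted log2 difference of -0.81 (SE 0.50). The granulocyte markers summed to 415, 1609, 2462 and 926 CPM in PS19, the same order of libraries as for Ly6c2. In NTG they summed to 1969, 2134, 1751 and 1547 CPM, where replicates 3 and 4 stood in the other order than for Ly6c2. None of the 8 granulocyte markers was at 0 in either group, 7 were lower in PS19, and 0 were called in edgeR or DESeq2 (1 at an unadjusted p under 0.05). The sum of 8 monocyte markers, which include the chemokine receptor gene Ccr2, was 160, 147, 185 and 117 CPM in PS19. In NTG this sum was 208, 229, 144 and 143 CPM. Its order of libraries differed from that of Ly6c2 in both groups. The part of these cell types in the Ly6c2 values was not tested.

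Ly6i had 4, 1, 18 and 0 counts in the PS19 libraries and 1 or 2 counts in each NTG library. It was above 3 counts in PS19 replicates 1 and 3, and at 2.36 CPM in the latter, the only adult library over 1 CPM. The pooled ratio of 2.19 had a counting interval of 0.816 to 7.39. In this comparison 4 members passed the filter, 0 were past an FDR of 0.05 in edgeR or DESeq2 (1 at an unadjusted p under 0.05 in edgeR) and 0 did not overlap between groups, where 0.0707% of all genes tested were past that FDR and 5.77% did not overlap. The Ly6c1 and Ly6c2 values were thus not separable from the variation between libraries.

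**Figure D3:**
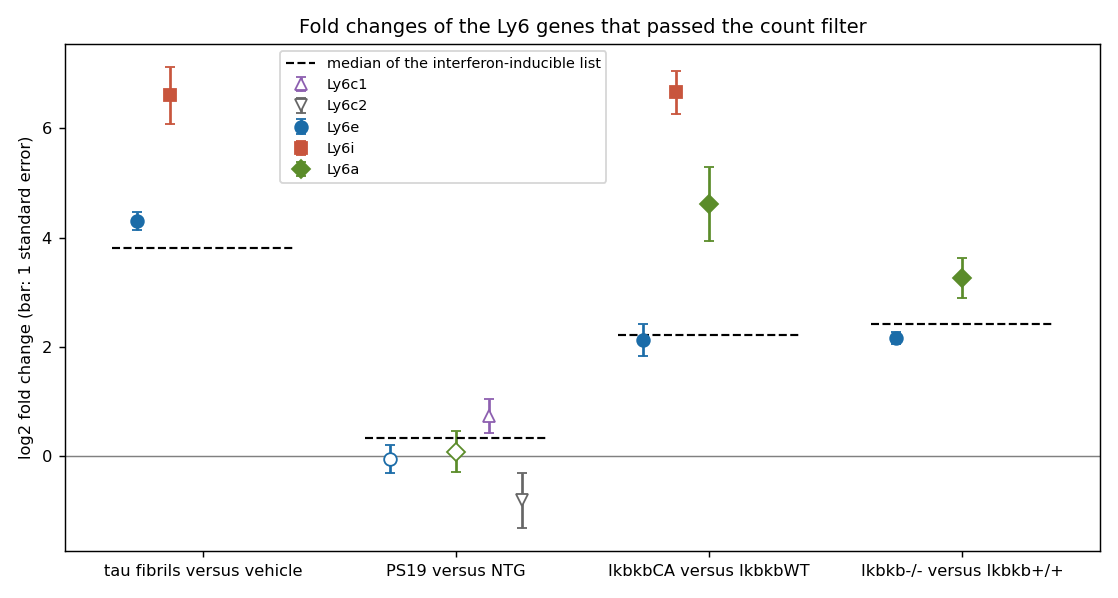
Fitted log2 fold change with 1 standard error for each member that passed the filter on low counts in each comparison, filled where past an FDR of 0.05 and open where not. The dashed lines are the medians of the interferon-inducible list, from 0.34 in PS19 to 3.81 after tau fibrils.

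With constitutively active IKKβ, Ly6e measured 1026, 1105, 384, 882 and 826 CPM in the IkbkbCA libraries. In IkbkbWT it measured 232.5, 242, 233, 131 and 125 CPM. The lowest IkbkbCA library, replicate 3, was still above all controls, and the means were 845 ± 280 against 193 ± 59.5 CPM (SD, n = 5 each), a log2 fold change of 2.13 (SE 0.29) that was 2.34 (SE 0.23) without that library. Replicates 4 and 5 of both groups had neuron markers summing to 91.4 to 115 CPM against 4.47 to 21.2 CPM in the others. Within these Ly6e was 854 against 128 CPM on average, and within the others 838 against 236 CPM. Replicate 3 stood apart in oligodendrocyte markers in both groups, at 4723 CPM in IkbkbWT and 1683 CPM in IkbkbCA. The other libraries summed to 247 to 643 CPM. Astrocyte markers summed to 203 CPM in IkbkbWT replicate 3 and to 20.48 to 81.35 CPM in the other libraries. Without IkbkbWT replicate 3 the log2 fold change of Ly6e was 2.21 (SE 0.32). The part of these cell types was not tested. Markers of border macrophages summed to 479 to 1012 CPM in IkbkbCA against 1335 to 1743 CPM in IkbkbWT, with 4 of the 5 tested called lower, and their part in the results was not tested. Microglia markers summed to 14060 to 23000 CPM in IkbkbCA, lowest in replicate 3, against 12110 to 17310 CPM in IkbkbWT. Of the 11 tested, 3 were called higher and 2 lower, and their part was not tested either.

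Ly6i again appeared where it had been near 0. It had 111, 90, 151, 102 and 60 counts in IkbkbCA, or 18.9, 17.3, 27.8, 14.3 and 15.0 CPM. It had 1, 1, 1, 2 and 0 counts in IkbkbWT. The pooled rate was 115-fold higher, with a counting interval of 49.0 to 356, and without replicate 3, the library with the most Ly6i, the fitted log2 fold change moved from 6.66 (SE 0.40) to 6.49 (SE 0.37). In that library Ly6i was at its highest while Ly6e was at its lowest among the IkbkbCA libraries.

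Ly6a measured 45.2, 43.0, 1.84, 22.8 and 20.3 CPM in IkbkbCA. It measured 0.976, 1.22, 0.962, 0.993 and 1.15 CPM in IkbkbWT. Replicate 3 stayed close to the controls, with 10 counts, whereas the other 4 libraries, at 20.3 CPM or more, stood far above them. The log2 fold change was 4.62 (SE 0.68) with all libraries and 4.95 (SE 0.30) without replicate 3, and with limma-voom on all libraries it was 3.97 (SE 1.59) and no longer past an FDR of 0.05. Over the same libraries the sum of the interferon-inducible list was 5723, 5320, 2609, 5248 and 4736 CPM, lowest in replicate 3 as for Ly6e and Ly6a.

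Ly6c1 had 0 to 3 counts in IkbkbCA and 0 to 4 in IkbkbWT. Ly6c2 had 21 counts in IkbkbCA replicate 3 (3.86 CPM) and at most 2 in each of the other 9 libraries. That library was the one with the high granulocyte markers, and its monocyte markers summed to 718 CPM against 170 to 307 CPM in the other IkbkbCA libraries. The part of such cells in its Ly6c2 counts was not tested. In IkbkbCA against IkbkbWT 3 members passed the filter, all 3 past an FDR of 0.05 in edgeR and not overlapping between groups, with or without replicate 3. Ly6i and Ly6a passed the filter only through their IkbkbCA libraries, so that their calls were largely fixed by it. The background over all genes tested was 14.5% past that FDR and 12.7% not overlapping.

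With Ikbkb deleted, Ly6e measured 902.5, 761, 1065 and 1040 CPM in the Ikbkb-/- libraries. In Ikbkb+/+ it measured 207, 240, 205 and 190 CPM. The groups stood wide apart, the means being 942 ± 140.5 and 210 ± 21.3 CPM (SD, n = 4 each) and the fitted log2 difference 2.16 (SE 0.11). Ly6a measured 24.9, 24.2, 37.0 and 42.6 CPM in Ikbkb-/-. It measured 4.10, 8.00, 2.15 and 0.926 CPM in Ikbkb+/+, all below the lowest Ikbkb-/- library, for a log2 fold change of 3.26 (SE 0.36) that was 4.04 (SE 0.33) without Ikbkb+/+ replicate 2, the highest control. Both genes were thus higher in each of the 2 cultures that carry Cre, although the floxed alleles activate IKKβ in one and remove it in the other. Border macrophage markers were lower here too, 419 to 725 against 1481 to 1691 CPM in sum, with 5 of the 5 tested called lower, and their part was not tested.

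Ly6i did not follow them. It had 1, 1, 2 and 2 counts in Ikbkb-/- and 1 count in each Ikbkb+/+ library, at or under the 3 counts taken as the detection limit, so no fold is given. When the 18 libraries of these experiments were fitted together, the fitted difference of the IkbkbCA and Ikbkb-/- effects on Ly6i was 5.78 on the log2 scale (SE 0.98), and 5.60 (SE 0.90) without IkbkbCA replicate 3. With at most 2 counts in each library of the other 3 groups, Ly6i passed the filter of that fit only through IkbkbCA, and the size of the difference depends on the prior count. For Ly6a the difference was 1.44 (SE 0.95), 1.74 (SE 0.64) without IkbkbCA replicate 3 and 0.67 (SE 0.99) without Ikbkb+/+ replicate 2. For Ly6e it was -0.02 (SE 0.35), and 0.17 (SE 0.27) without IkbkbCA replicate 3. Of these 3 members, 1, Ly6i, was past an FDR of 0.05. Ly6c1 and Ly6c2 did not pass the filter in that fit. Of all genes tested, 3.12% were past the FDR for the difference.

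Ly6c1 ran the other way in this comparison, at low counts. It had 29, 41, 17 and 2 counts in Ikbkb+/+, or 10.8, 8.63, 2.81 and 0.265 CPM. It had 0, 3, 1 and 1 counts in Ikbkb-/-. Ikbkb+/+ replicate 4 lay among the Ikbkb-/- libraries and the other 3 controls above them. The pooled ratio was 0.0729, and its counting interval of 0.0231 to 0.177 leaves out the wide spread between the control libraries. The gene did not pass the filter. Several endothelial markers were also lower in Ikbkb-/-, among them Cldn5, a tight junction gene of brain vessels, at 4.65 CPM on average in Ikbkb+/+ and 0 counts in every Ikbkb-/- library, and Pecam1 at 4.37 against 1.02 CPM. Of the 5 tested 2 were called lower (Pecam1 and Egfl7) and 1 higher, Flt1, whose 189 against 85.8 CPM made the endothelial sum larger in Ikbkb-/- (190 to 240 CPM) than in Ikbkb+/+ (123 to 187 CPM). These genes were named after their values were seen. Granulocyte markers summed to 440, 104, 48.3 and 18.8 CPM over the 4 controls, the order in which Ly6c1 fell, and to 12.4 to 18.3 CPM in Ikbkb-/-, with 3 of the 4 tested called lower. Astrocyte markers fell in the same order over the controls, at 208, 152, 94.7 and 44.7 CPM, and summed to 28.2 to 67.0 CPM in Ikbkb-/-. Of the 5 astrocyte markers tested, 1 was called lower and 1 higher. The part of any of these cell types in the Ly6c1 values was not tested. Ly6c2 had 2, 2, 0 and 0 counts in Ikbkb+/+ and 0 in all Ikbkb-/- libraries. Here 2 members passed the filter, both past an FDR of 0.05 and not overlapping, with 14.6% of all genes past that FDR and 18.1% not overlapping. Ly6a, with 11, 38, 13 and 7 counts in Ikbkb+/+, would not have passed it by these controls alone. It entered the test through the Ikbkb-/- libraries, where it was high, so that its call was partly fixed by the filter.

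**Figure D4:**
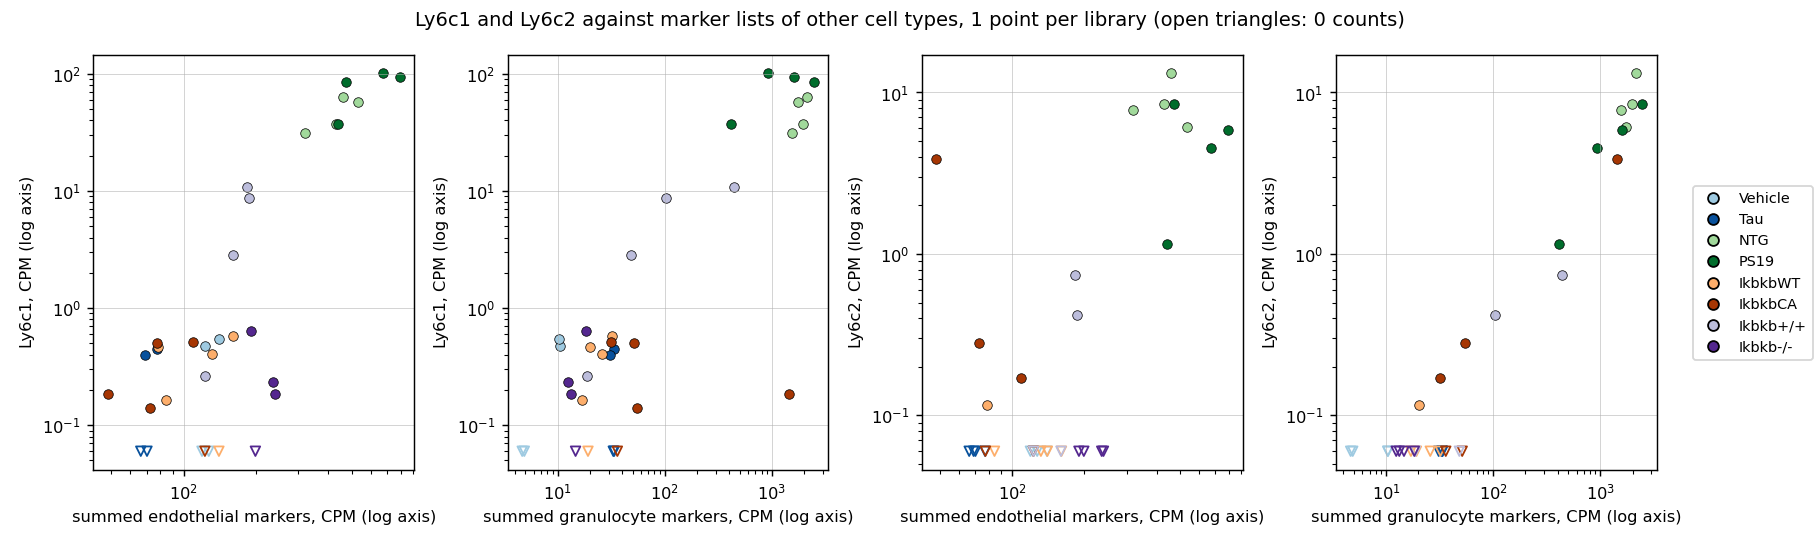
Ly6c1 (left pair of panels) and Ly6c2 (right pair) in CPM against the summed endothelial or granulocyte markers in CPM, all on log axes, 1 point per library in the colour of its group, and libraries with 0 counts as open triangles. IkbkbCA replicate 3, at 48.4 CPM of endothelial and 1438 CPM of granulocyte markers, had 3.86 CPM of Ly6c2 and 0.184 CPM of Ly6c1.

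Ordered by mean level, Ly6e ran from Ikbkb-/- (942 CPM) through Tau (928), IkbkbCA (845), NTG (328), PS19 (317), Ikbkb+/+ (210) and IkbkbWT (193) to Vehicle (47.0 CPM). The ranges of neighbours in this order overlapped, except between IkbkbCA and NTG and between IkbkbWT and Vehicle. For Ly6a the order was PS19 (33.8 CPM), Ikbkb-/- (32.2), NTG (31.5), IkbkbCA (26.6), Ikbkb+/+ (3.79), Tau (1.54), IkbkbWT (1.06) and Vehicle (0.645 CPM), and every pair of neighbours overlapped, IkbkbCA and Ikbkb+/+ only through IkbkbCA replicate 3. The high Ly6a groups thus included both adult groups, where Ly6e was at an intermediate level, and did not include Tau, where Ly6e was as high as anywhere. The endothelial markers summed to 320 to 793 CPM in the adult libraries and to 48.4 to 240 CPM in the cultures. The part of endothelial RNA in the Ly6a values was not tested. For Ly6i, Tau (23.5 CPM) and IkbkbCA (18.6 CPM) overlapped each other and no other group.

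Since several Ly6 genes are known as interferon-inducible, the members were set beside 30 other interferon-inducible genes. After tau fibrils all 29 that could be tested were higher (adjusted p under 0.05, edgeR), with a median log2 fold change of 3.81 against -0.01 over all genes, and Ly6e at 4.31 and Ly6i at 6.61 lay above that median. Examples were Ifitm3, an antiviral membrane protein gene, at 889 ± 30.2 against 46.9 ± 4.82 CPM, Trim30a at 397 ± 41.6 against 55.6 ± 2.89 CPM, and Ifit3 at 372 ± 37.8 against 15.9 ± 12.1 CPM (adjusted p 1.1e-13 or lower, edgeR). Ly6a stayed at a few counts in the same libraries. Of all genes tested after tau fibrils, 29.9% were past the same threshold in either direction. With at least 10 counts required in every library, 17 list genes were called, because fewer were tested. The list was chosen with earlier results of these data known.

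In IkbkbCA all 29 tested list genes were higher, with and without replicate 3. The list median was 2.21 against -0.05 over all genes, and with all libraries 14.5% of all genes tested were called. Bst2, which tethers virus particles to the cell surface, measured 1320 ± 465.5 against 361 ± 123 CPM, Trim30a 403 ± 83.3 against 144 ± 29.3 CPM, and Ifitm3 367 ± 33.7 against 94.2 ± 49.4 CPM. In Ikbkb-/- 27 of 30 were called higher and 0 called lower, with a median of 2.41 against 0.00017 over all genes. Of all genes tested in that comparison 14.6% were called. There Bst2 measured 1507 ± 317 against 389 ± 89.4 CPM, Rsad2, the gene for viperin, 647 ± 45.6 against 43.2 ± 1.69 CPM, and Trim30a 496 ± 23.8 against 141.5 ± 10.3 CPM. The Ly6e values of 2.13 and 2.16 lay near these medians and the Ly6a values of 4.62 and 3.26 above them.

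Ly6i parted from most of the list between these experiments. In the fit of the difference between the IkbkbCA and Ikbkb-/- effects, the list median was -0.31 against -0.04 over all genes. Of all genes tested 3.12% were past an adjusted p of 0.05 (edgeR), and 2 of the 30 list genes were. Both had the larger effect in IkbkbCA, as Ly6i did, and were named after their values were seen. Cxcl10, a chemokine gene, differed by 3.23 (SE 0.70; adjusted p = 0.012, edgeR). Cd274, the gene for PD-L1, differed by 1.58 (SE 0.42; adjusted p = 0.045, edgeR).

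In the adult libraries 0 of 27 tested list genes were past the threshold in edgeR and 2 in DESeq2, 6 at an unadjusted p under 0.05 in edgeR, and 24 were higher in PS19, with a median of 0.34 against 0.0042 over all genes. Trim30a measured 106 ± 32.2 against 101 ± 23.8 CPM, Ifi44 90.2 ± 38.8 against 63.0 ± 23.02 CPM and Irf9 79.7 ± 10.2 against 64.4 ± 2.67 CPM. The list summed to 878, 942, 1054 and 689 CPM in PS19 and 634 to 795 CPM in NTG. Within PS19, replicate 4 had the lowest list sum and the highest Ly6e and Ly6a, and replicate 3 the highest list sum and the lowest Ly6a.

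**Figure D5:**
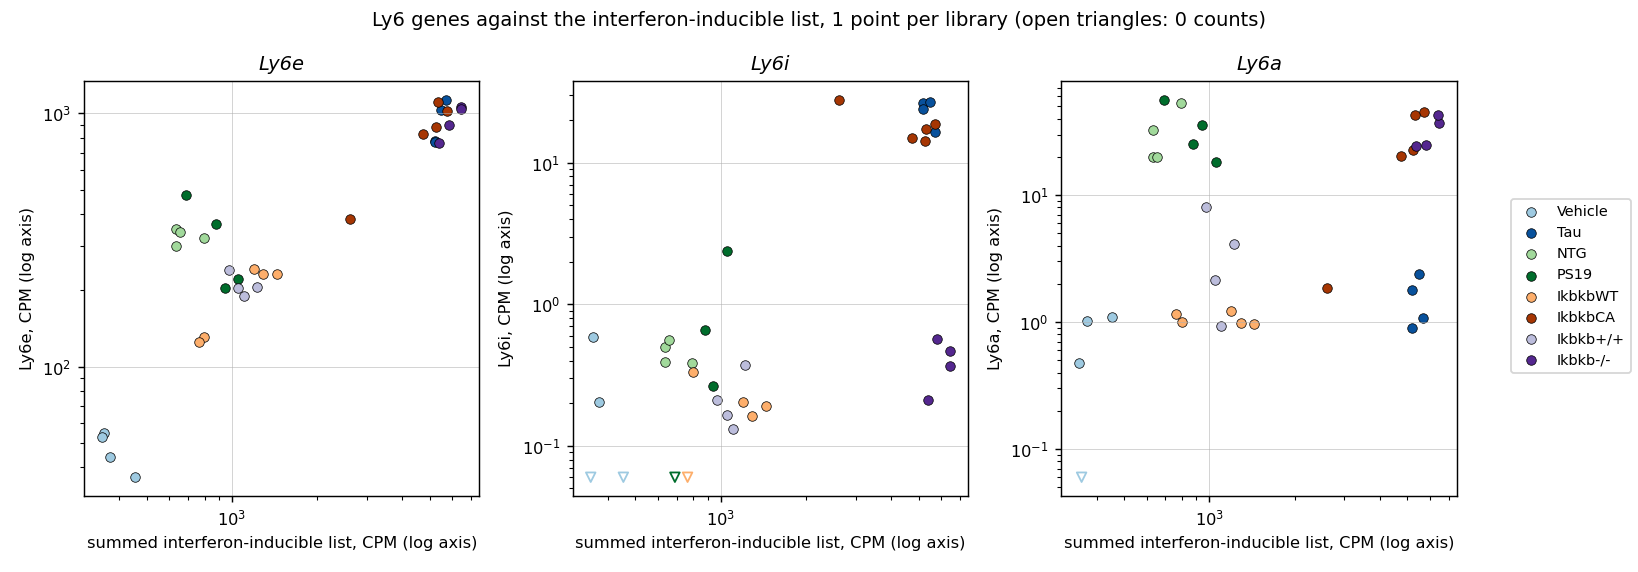
Ly6e, Ly6i and Ly6a in CPM against the summed interferon-inducible list in CPM, both on log axes, 1 point per library, with libraries at 0 counts as open triangles. The 4 Ikbkb-/- libraries have list sums of 5388 to 6457 CPM and Ly6i at 0.565 CPM or less, and the 4 Tau libraries have list sums of 5197 to 5700 CPM and Ly6a at 2.38 CPM or less.

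Of the rest of the family, 16 of 18 other genes listed for the Ly6 cluster and all 18 listed relatives elsewhere in the genome were in the tables, and most were at or near 0 counts in microglia. In the cluster only Ly6g, a granulocyte surface marker gene, passed the filter in the adult cells (9.76 ± 7.62 CPM in PS19, 9.98 ± 2.89 in NTG), and only Ly6h in each Ikbkb experiment. None was called. Ly6h stood at 12.1 ± 5.20 against 12.0 ± 6.78 CPM in IkbkbCA and IkbkbWT and at 9.51 ± 0.862 against 7.37 ± 1.85 CPM in Ikbkb-/- and Ikbkb+/+, so the genes of the cluster did not all move with Ly6e, Ly6i and Ly6a.

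Among the relatives elsewhere, Lypd1, which encodes a modulator of nicotinic acetylcholine receptors, fell after tau fibrils from 33.7 ± 5.42 to 15.96 ± 1.96 CPM (log2 fold change -1.09, SE 0.21; adjusted p = 2.5e-04, edgeR). Neuron markers summed to 63.7 to 73.5 CPM in Tau against 123 to 152 CPM in Vehicle, with all 5 lower, 4 of them called, and their part was not tested. Plaur, the urokinase receptor gene, fell in Ikbkb-/- from 22.03 ± 3.79 to 13.3 ± 4.81 CPM (-0.85, SE 0.20; adjusted p = 0.0059, edgeR). In IkbkbCA Plaur measured 48.2 ± 27.3 against 22.9 ± 8.09 CPM (1.06, SE 0.39; adjusted p = 0.097, edgeR). Granulocyte markers summed to 1438 CPM in IkbkbCA replicate 3, and to 12.4 to 18.3 CPM in Ikbkb-/- against 18.8 to 440 CPM in Ikbkb+/+. Their part in the Plaur values was not tested. Cd59a, the gene for the complement inhibitor CD59, stayed between 8.83 and 15.8 CPM on average in every group and was not called in any comparison.

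The genes whose pattern was most like each member were found over the 34 libraries, among 13493 other genes with at least 10 counts in at least 4 libraries, from log2 CPM taken as the difference from the control mean of the same experiment. These libraries share groups, depth and scaling, so the correlations are descriptions. For Ly6e the closest included Rnf213 (Pearson r = 0.97), AW112010, Igtp and B2m (0.96). For Ly6i they were Cxcl16 (0.96), C3, Gpr84, Saa3 and Tlr2 (0.95). For Ly6a the closest were weaker, Zfas1 (0.86), Iigp1, Gbp6, Ccni and Ccng1 (0.84). Ly6c1 was closest to H2-Aa (0.88), Car4, Siglech, Ptprb and Pdcd1 (0.85), and those closest to Ly6c2 included Slc4a7 (0.82), Clmp, Anxa1 and S100a8 (0.74). No gene stood in the lists of 2 members. Between members the highest correlation was that of Ly6e and Ly6i (r = 0.75), followed by Ly6e and Ly6a (0.54) and Ly6i and Ly6a (0.50), and Ly6c1 with Ly6c2, despite their near-identical sequence, reached 0.24.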

How the data were processed

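Each of the 34 microglia libraries had a deposited table of counts per Ensembl gene, made by the authors from QuantSeq 3′ libraries aligned to GRCm38 with GENCODE genes. According to the paper, the microglia reads were mapped on the BlueBee platform and the cortex reads with STAR. The submitters' processing notes name STAR, RSEM, edgeR and limma. Of the alignment lines counted for each library, 52.5% to 56.2% were set apart as aligned to more than 1 place. Of the uniquely aligned reads alone, 12.4% to 38.3% lay outside genes. Neither entered library sizes or tests. Whether counting used strand is not given in the sources used here. No 2 libraries of a group held identical values.

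Each comparison was fitted on its own libraries with edgeR 4.0.16 in R 4.3.3 (filterByExpr with a minimum count of 10 and a minimum total of 15, TMM factors, glmQLFit and glmQLFTest, Benjamini-Hochberg FDR under 0.05). CPM used the library sizes and factors of that fit. The standard error is the log2 fold change divided by the square root of the F statistic. Scripts were checked on simulated counts. The members and gene lists were chosen with earlier results of these data known. Genes named beyond the members were, of the relatives, those called and the 3 with the highest mean CPM, of the interferon list the 3 with the highest mean CPM in a comparison, and the 5 most correlated with each member, of which some are not reported here. Ly6h, the marker genes and the genes past the threshold for the difference of effects were named after their values were seen. Alternatives were DESeq2 1.42.0, limma-voom 3.58.1, RLE and total-count scaling, other count filters, age as a covariate, and leaving out each library. Gene models and transcripts were from GENCODE M21, and sequences were aligned with Biopython 1.88.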

Additional observations from a re-analysis of the deposited data

Results flagged for a closer look

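In 58 combinations of a gene or summed list with a group, 5 had a library that stood apart from the rest of its group by Dixon's criterion, which chance alone passes in about 1 of 20 groups. Ly6c2 in IkbkbCA replicate 3 was at 3.86 CPM against at most 0.279 CPM in the other IkbkbCA libraries. The same library was the highest of its group in the summed granulocyte markers (1438 CPM) and in the summed monocyte markers (718 CPM). The other such values were the summed interferon-inducible list in NTG replicate 2 (795 CPM, the highest of its group) and the summed monocyte markers in Ikbkb-/- replicate 1 (104.5 CPM, the lowest of its group).

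The fitted effects on Ly6i stood 5.78 apart on the log2 scale between the Ikbkb experiments, larger in IkbkbCA than in Ikbkb-/-. This is a description of a gene chosen by its values, which passed the filter only through IkbkbCA, and its size depends on the prior count. Ly6i was higher than every control in 5 of 5 IkbkbCA libraries and reached at most 2 counts in each Ikbkb-/- library.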

How the results depend on the processing

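The 7 Ly6 fold changes past the threshold kept their direction in all 108 values under the alternatives and their call in 107, the exception being Ly6a in IkbkbCA with limma-voom (3.97, against 4.37 to 4.95 in the others). Requiring at least 10 counts in every library removed Ly6i, and Ly6a in the cultures, and left 1 Ly6 gene called after tau fibrils, 1 in IkbkbCA and 1 in Ikbkb-/-, and 17 interferon-inducible genes after tau fibrils, because fewer genes were tested. In Ikbkb-/-, 3 Ly6 genes were called without filter and with DESeq2, Ly6c1 being the added one, and 2 to 3 on leaving out 1 library. In PS19 against NTG the sign of Ly6e and Ly6a depended on single libraries: leaving out 1 library gave -0.31 to 0.13 for Ly6e, above 0 without PS19 replicate 2 (0.13) or 3 (0.09), and -0.29 to 0.47 for Ly6a, below 0 without PS19 replicate 4 (-0.29), NTG replicate 1 (-0.06) or NTG replicate 4 (-0.06). The difference of the IkbkbCA and Ikbkb-/- effects on Ly6e ran from -0.14 to 0.17 on leaving out 1 library and was 0.0013 without filter. The cause of these changes of sign was not tested. In PS19 the interferon-inducible genes called were 2 with DESeq2 and 1 without filter, and all genes called were 8 with edgeR, 97 with DESeq2, 166 without filter, 4 with limma-voom, 0 with age as a covariate in edgeR (552 at an unadjusted p under 0.05), 54 without PS19 replicate 2 and 4 to 5 without single NTG libraries. Relatives called in IkbkbCA were 1 with DESeq2 and 0 to 1 on leaving out 1 library (1 without IkbkbCA replicate 1), and 2 in Ikbkb-/- without filter. Total-count scaling moved the median of all genes to -0.16 after tau fibrils and to -0.11 in IkbkbCA. A covariate for the neuron marker level, and all alternatives on the interferon list and the relatives, were chosen after seeing the data; with that covariate 3 Ly6 genes were called in IkbkbCA.

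The words shared with other genes ranged from 8.2% to 35.9% for Ly6c1 and 5.2% to 51.0% for Ly6c2 with other word lengths and windows. They ranged from 0.0% to 22.4% for Ly6i, 0.0% to 8.7% for Ly6a and 0.0% to 0.7% for Ly6e. With Spearman in place of Pearson correlations at most 1 of the 5 genes most like a member remained. Depth limits Ly6i, Ly6c1 and Ly6c2 in the cultures, where differences under 3 counts per library were not detectable.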
